A study of Mus musculus with 5 samples.

Results

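The genes described here are 10 myeloid granule and effector genes, given as a list of names, out of 21887 protein-coding genes of the mouse RefSeq gene table: the granule protein genes Mpo, Elane, Prtn3, Ctsg and Lyz2, the gene S100a8 of a mainly cytosolic antimicrobial protein, and the membrane protein genes Ms4a3, Itgam, Fcgr3 and Cd33. Elane and Prtn3 lie side by side, so that the 10 genes stand for fewer separate loci than genes. For each gene, peaks of H3K27ac, a histone H3 acetylation found at active promoters and enhancers, were sought at the gene ends, in the gene body and within 50 kb.

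H3K27ac was profiled by ChIPmentation, in which the Tn5 transposase adds sequencing adapters to immunoprecipitated chromatin. The cells were sorted from mouse bone marrow as CD45.2+ cells lacking lineage markers and carrying both Sca1 and Kit, named HSC/MPP (haematopoietic stem cells and multipotent progenitors) in the labels. All libraries, 4 for H3K27ac and 1 for input, carried the genotype given as Mll3/4 deleted, and the labels give neither the driver of the deletion nor the age of the mice. Mll3 and Mll4 belong to the COMPASS family of enzymes that methylate histone H3, and enhancers are their main sites of action. The series title names myeloid identity among the functions studied, and the list of 22948 peaks shows where acetylation was called at genes of that programme in cells labelled as lacking both enzymes. It is 1 list for all libraries, so that no value of a single library, no replicate error, no test and no comparison with another genotype could be had from it.

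Granulocytes and monocytes carry granules filled with antimicrobial proteins. The primary granule proteins are made early, in promyelocytes, under the control of C/EBP, PU.1, MYB and RUNX factors, and the genes for them are mostly silent in stem cells and strongly transcribed after commitment to the myeloid lineage. Active genes commonly carry H3K27ac over the start and at enhancers that may lie many kilobases away.

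None of the 10 genes had a peak overlapping the 1 kb on either side of a gene end, while 36.2% of all protein-coding genes did. None had a peak in the body, against 16.6% of all genes and 3.25% of genes of 15 kb or shorter. None had a peak over an annotated start, against 38.0% of the genes in the promoter table. Peaks within 50 kb were found at 5 of the 10 genes, Mpo, Elane, Prtn3, Fcgr3 and Cd33, against 68.6% of all genes. A distal peak, meaning one with its summit more than 1 kb from any protein-coding gene end, lay within 50 kb of the same 5 genes, against 44.7% of all genes. Stricter settings lowered both numbers. With −log10 q of 5 or more, 2 members and 23.5% of all genes had one, and with a fold enrichment of 4 or more these were 2 members and 22.2%. With an end window of 2.5 kb they were 3 members and 37.5%, and with the ends of all annotated genes 2 members and 42.1%. The other genes, Ctsg, Ms4a3, Lyz2, Itgam and S100a8, had no peak of any kind within 50 kb.

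**Figure D1:**
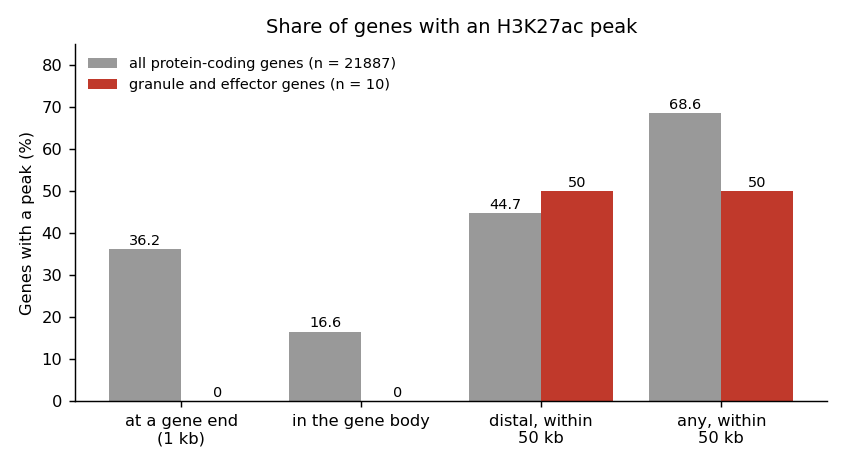
Share of genes with an H3K27ac peak, in percent, at a gene end, in the body, distal within 50 kb, and of any kind within 50 kb, for all protein-coding genes (grey) and for the 10 granule and effector genes (red). The red bars are at 0 for gene ends and bodies and at 50% for both distances of 50 kb.

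The promoters of the 10 genes were compared with the list first, since the rule on peaks does not use sequence. All 10 genes were matched by symbol in the RefSeq promoter table (GRCm38.p6), which covers 250 bases before to 50 bases after the start. The promoters of the primary granule genes Mpo, Prtn3 and Ctsg are given here as examples. Mpo encodes the haem enzyme myeloperoxidase, and Prtn3 and Ctsg encode the serine proteases proteinase 3 and cathepsin G. Like the other members, these genes had no acetylation peak at either end. The bases before the start are printed, 5′ to 3′ on the strand of the gene, and capitals mark GAGGAAG, the letters searched for the ETS-family factor PU.1.
Mpo, chr11:87793534-87793783, plus strand: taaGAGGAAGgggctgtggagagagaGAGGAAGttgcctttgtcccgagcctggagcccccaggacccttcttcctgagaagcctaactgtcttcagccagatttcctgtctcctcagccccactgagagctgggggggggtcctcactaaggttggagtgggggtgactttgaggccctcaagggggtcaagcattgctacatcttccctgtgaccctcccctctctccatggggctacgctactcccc
Prtn3, chr10:79879417-79879666, plus strand: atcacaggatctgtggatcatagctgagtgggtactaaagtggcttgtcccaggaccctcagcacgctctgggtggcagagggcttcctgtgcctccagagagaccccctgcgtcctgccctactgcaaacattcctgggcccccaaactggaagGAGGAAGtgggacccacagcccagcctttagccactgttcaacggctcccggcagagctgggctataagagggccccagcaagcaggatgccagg
Ctsg, chr14:56102575-56102824, minus strand: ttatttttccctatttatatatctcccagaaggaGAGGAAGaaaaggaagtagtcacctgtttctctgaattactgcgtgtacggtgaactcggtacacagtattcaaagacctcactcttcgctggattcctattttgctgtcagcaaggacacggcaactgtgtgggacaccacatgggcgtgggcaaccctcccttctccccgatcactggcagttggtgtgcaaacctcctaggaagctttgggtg

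The letters GAGGAAG, searched on both strands, were found in 8 of the 10 promoters, at all but Ms4a3 and Lyz2, and in 13.5% of all 17486 promoters of protein-coding genes with a full sequence. In Prtn3 they lay 95 to 89 bases before the start, in Elane 85 to 79 bases before it and in Itgam 84 to 78 bases before it. Mpo held them 2 times, 247 to 241 and 224 to 218 bases before the start. Itgam also held them 2 times, with the other match on the opposite strand, 31 to 37 bases after the start. The C/EBP letters TTGCNNAA were found in 2 promoters, Ms4a3 and Fcgr3, and in 10.1% of all promoters. The RUNX letters TGTGGT were found in 3 members, Ctsg, Lyz2 and Cd33, against 15.1% of all promoters. The MYB letters CAACTG were found in Ctsg alone of the 10, against 12.4%, and TATAAA in Ctsg and S100a8, against 13.3%. In S100a8 the TATAAA lay 30 to 25 bases before the start, and in Ctsg it lay on the other strand, 237 to 232 bases before it. The GC box letters GGGCGG were found in 1 member, Itgam, against 46.3% of all promoters. Among the promoters with a CpG ratio under 0.4, the kind that 9 of the 10 genes have, the GC box letters were found in 11.4%, TATAAA in 23.4%, the RUNX letters in 22.0%, the MYB letters in 16.7%, the C/EBP letters in 14.3% and GAGGAAG in 16.3%. A match of letters is a description and does not show that a factor was bound.

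This CpG ratio is that of observed to expected CpG in the 300 bases. At the 10 genes it ranged from 0 at Ms4a3 to 0.46 at Ctsg, with a median of 0.22, against a median of 0.58 over all promoters. Promoters with a peak over the start had a median ratio of 0.81, and those without had 0.32. Of the genes with a ratio under 0.4, 8.27% had a peak over that start, and of those with a ratio of 0.4 or more 55.3% did. The ratio was under 0.4 in 9 of the 10 genes. For these 9 genes the absence of start peaks therefore stands against a background of 8.27%. Ctsg, with a ratio of 0.46, fell in the range of 0.4 to 0.6, where 30.8% of genes had a start peak. These shares count the first listed start of each gene, over which 6450 of all 17486 promoters had a peak. Counting any annotated start, 38.0% of the genes in the promoter table had one. At either gene end, 10.6% of the genes with a ratio under 0.4 had a peak.

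**Figure D2:**
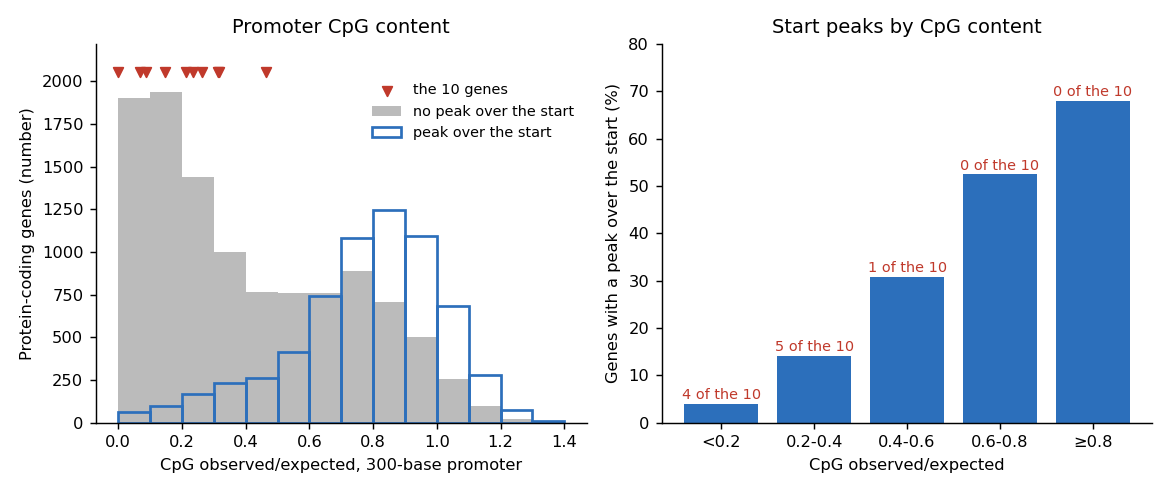
Left, number of protein-coding genes by the observed to expected CpG ratio of the promoter (bins of 0.1), with a peak over the start (blue outline) or without (grey); triangles mark the 10 genes. Right, share of genes with a peak over the start in each range of the ratio, from 4.05% under 0.2 to 68.0% at 0.8 and above, with the number of the 10 genes in each range; 9 of them lie under 0.4.

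Elane and an upstream neighbour with a start peak, Ptbp1, are shown side by side as a pair of promoters that differ in CpG content. The promoter of Plppr3, which lies between them, goes the other way: its ratio was 0.70, with 23 CpG in 300 bases, and it had no peak over the start. Elane encodes neutrophil elastase, a serine protease of the primary granule, and Ptbp1 encodes an RNA-binding regulator of splicing that most cells make. In the lines below capitals mark CpG, which occurs 3 times in the 250 bases before the start of Elane and 17 times before that of Ptbp1. The downstream neighbour Med16, also with a start peak, had 3 CpG in those 250 bases, as many as Elane. Over the 300 bases the ratio of Med16 was 0.70 and that of Elane 0.31.
Elane, chr10:79886062-79886311, plus strand: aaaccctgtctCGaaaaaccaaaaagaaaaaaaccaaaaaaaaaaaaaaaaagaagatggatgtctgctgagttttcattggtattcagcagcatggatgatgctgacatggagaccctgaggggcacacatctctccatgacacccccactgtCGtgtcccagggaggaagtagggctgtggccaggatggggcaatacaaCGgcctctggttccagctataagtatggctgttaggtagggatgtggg
Ptbp1, chr10:79854182-79854431, plus strand: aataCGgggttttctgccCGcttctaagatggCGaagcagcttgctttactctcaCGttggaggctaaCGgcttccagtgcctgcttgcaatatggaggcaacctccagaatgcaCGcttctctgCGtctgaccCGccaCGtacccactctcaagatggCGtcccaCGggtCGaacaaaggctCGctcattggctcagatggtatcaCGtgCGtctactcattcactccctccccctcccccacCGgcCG

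Elane (chromosome 10, 79886312 to 79888216) and Prtn3 (79879667 to 79883174) shared the same 5 peaks within 50 kb, and all 5 belonged by position to other genes. The peak at the start of Ptbp1 (79852207 to 79857265) was 5059 bp wide, with a fold enrichment of 8.39 over background in the authors' deposited list. All fold enrichments and q-values of peaks quoted here are the authors'. Downstream, a peak at an end of Med16 (79908502 to 79909427), a subunit gene of the Mediator complex, had a fold enrichment of 8.49. A peak at R3hdm4 (79915588 to 79917791), which also reached an end of Kiss1r, had one of 6.70. These 3 peaks stood high in the list, at the 95.1, 95.3 and 90.0 percentiles of fold enrichment.

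Both distal peaks near Elane and Prtn3 lay inside the overlapping genes Ptbp1 and Plppr3. The first (79861364 to 79862015) had a fold enrichment of 3.24 and its summit lay 1134 bp from an end of Plppr3, just past the limit of 1 kb. The second (79862230 to 79862924) had a fold enrichment of 2.60 and a q-value of 0.055, and its summit was 190 bp from an end of the microRNA gene Mir6910. Between this peak and the peak at Med16 stretched 45.6 kb without a called peak, holding Prtn3, Elane and Cfd, the gene of complement factor D. This block was the shortest of the peak-free stretches around the 10 genes.

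Mpo (chromosome 11, 87793784 to 87804412) had 2 peaks within 50 kb, both upstream of the gene, and no peak at a neighbouring gene end by its summit. The nearer and stronger peak (87755696 to 87757691, fold enrichment 5.48, −log10 q 11.3) had its summit 37.4 kb before the gene. It covered the microRNA genes Mir142 (87756864 to 87756927) and Mir142b (87756841 to 87756955) and reached the 1 kb beside an end of Tspoap1. miR-142 is a microRNA of blood cells in general, and its mature forms are given here because this peak was the strongest within 50 kb of Mpo; capitals mark the seed, bases 2 to 8, from RefSeq (GRCm38.p6).
mmu-miR-142a-3p, chr11:87756903-87756925, plus strand: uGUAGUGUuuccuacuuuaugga
mmu-miR-142a-5p, chr11:87756867-87756887, plus strand: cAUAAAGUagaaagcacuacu

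The other peak near Mpo (87748745 to 87749477, fold enrichment 4.19, −log10 q 6.27) lay 44.5 kb before the start. Its summit was inside no protein-coding gene and 5632 bp from the nearest annotated end, that of Supt4a. It was stronger than 79.1% of the distal peaks of the list. On the other side of Mpo no peak was called before position 87986365. The peak-free stretch of 229 kb held 8 protein-coding genes, among them Mpo, the lactoperoxidase gene Lpo and the eosinophil peroxidase gene Epx.

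**Figure D3:**
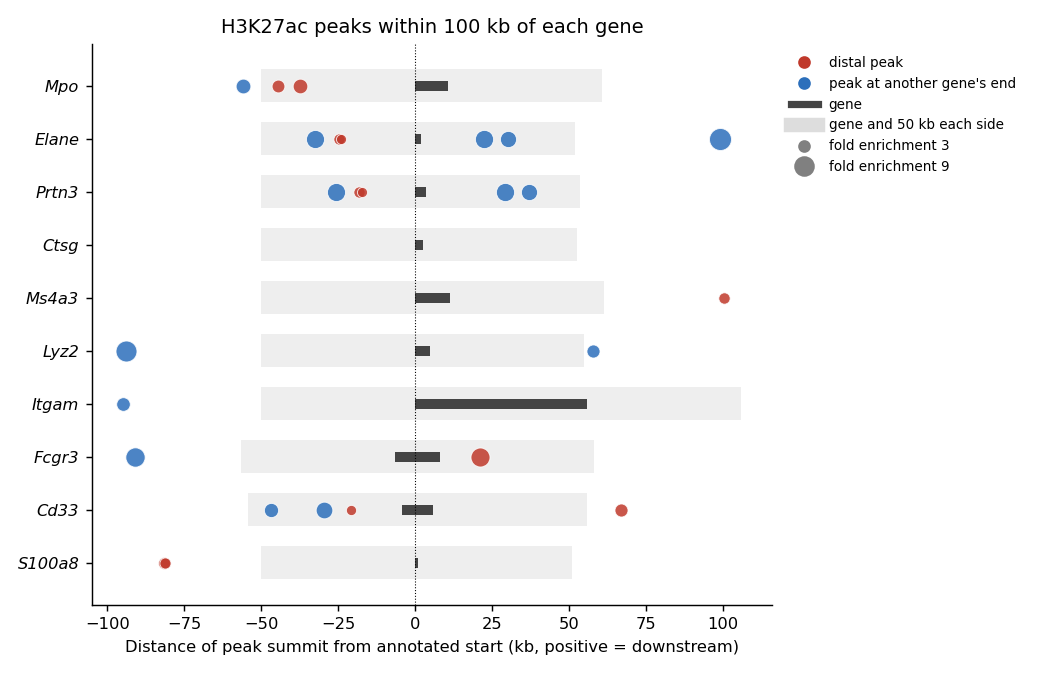
Peak summits within 100 kb of each gene, placed by distance in kb from the annotated start in the direction of transcription; red points are distal peaks, blue points are peaks within 1 kb of another gene's end, point area follows fold enrichment, and the grey band marks the gene with 50 kb on each side. No point lies on a gene, and the bands of Ctsg, Ms4a3, Lyz2, Itgam and S100a8 are empty.

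Ctsg (chromosome 14, 56099885 to 56102574) was the farthest of the 10 genes from any peak. Its nearest summit lay 200 kb away, and 83.9% of protein-coding genes had a nearer one. The peak-free stretch around it spanned 674 kb and held 17 protein-coding genes, among them 7 granzyme genes and 5 Mcpt genes, which encode related serine proteases of lymphocytes and mast cells. Ctsg was also the member with the highest promoter CpG ratio.

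Of the effector genes on the cell surface, Fcgr3 had the nearest and strongest distal peak. Fcgr3 (chromosome 1, 171051169 to 171065915) encodes the low-affinity immunoglobulin receptor CD16. Its peak (171038080 to 171038579) lay 12.9 kb past the 3′ end of the gene, in the stretch between Fcgr3 and Fcgr4, with a fold enrichment of 9.24 and −log10 q of 30.3. This fold enrichment was higher than in 98.2% of distal peaks. The peak was 500 bp wide, and 3 of the 15480 distal peaks, itself included, were as narrow and as strong. It fitted between 2 transfer RNA genes, n-TGtcc2 (171037997 to 171038068) and n-TLcag3 (171038614 to 171038696), with its summit 250 bp from the first. The table places 25 transfer RNA genes within 50 kb of Fcgr3, and 3 of them had a peak within 1 kb, against 22.8% of all transfer RNA genes. Only 1 peak was called within 50 kb of Fcgr3, so these 3 share it. These genes recur as near copies, and how reads from such copies were placed is not given in the sources used here.

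Cd33 (chromosome 7, 43527399 to 43537424) encodes a sialic acid-binding receptor of the Siglec family. Its 1 distal peak (43553543 to 43554071), 16.4 kb upstream of the gene, was weak, with a fold enrichment of 2.66 and a q-value of 0.060. It was stronger than 30.7% of the distal peaks. Farther upstream, the zinc finger genes Zfp658 and Zfp719 had peaks at an end, with fold enrichments of 7.10 and 5.17.

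Itgam, the longest of the genes at 55.9 kb, encodes CD11b, the alpha chain of the integrin Mac-1. It had no peak in its body, and its nearest summit lay 94.9 kb upstream. The peak-free stretch of 270 kb around it also held Itgax and Itgad, which encode related alpha chains, and Pycard. Ms4a3, a four-transmembrane protein gene of granulocyte and monocyte progenitors, had its nearest summit 88.9 kb away. Its peak-free stretch of 229 kb held 3 Ms4a genes. Lyz2, which encodes the lysozyme of myeloid cells, had summits at Yeats4, 53.1 kb past its 3′ end, and at Cpsf6, 93.9 kb upstream, and the intestinal lysozyme gene Lyz1 lay in the same peak-free stretch of 150 kb.

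S100a8 (chromosome 3, 90669071 to 90670034), whose product forms the antimicrobial complex calprotectin with that of S100a9, had its nearest summit 81.1 kb upstream, inside S100a3. From there no peak was called for 2917 kb, one of the 104 longest of the 22927 stretches between neighbouring peaks. The stretch held 63 protein-coding genes, including 8 S100a genes, S100a8 and S100a9 among them, 14 Sprr genes and 21 Lce genes; Sprr and Lce genes act in the skin barrier.

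Across the 10 genes the nearest summit lay 12.9 to 200 kb away, with a median of 45.2 kb. For protein-coding genes as a whole the median was 8.48 kb, and each of the 10 lay beyond it. Among genes with a promoter CpG ratio under 0.4 the median was 72.6 kb, and 4 of the 10 genes lay beyond that. The direction of this difference therefore depended on which genes the 10 were set beside. Likewise, 44.0% of genes with a low CpG ratio had a peak of any kind within 50 kb and 29.4% had a distal one, against 5 of the 10 members for both in the list as deposited. The difference between the members and either set of genes was not tested, since genes are not replicates.

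**Figure D4:**
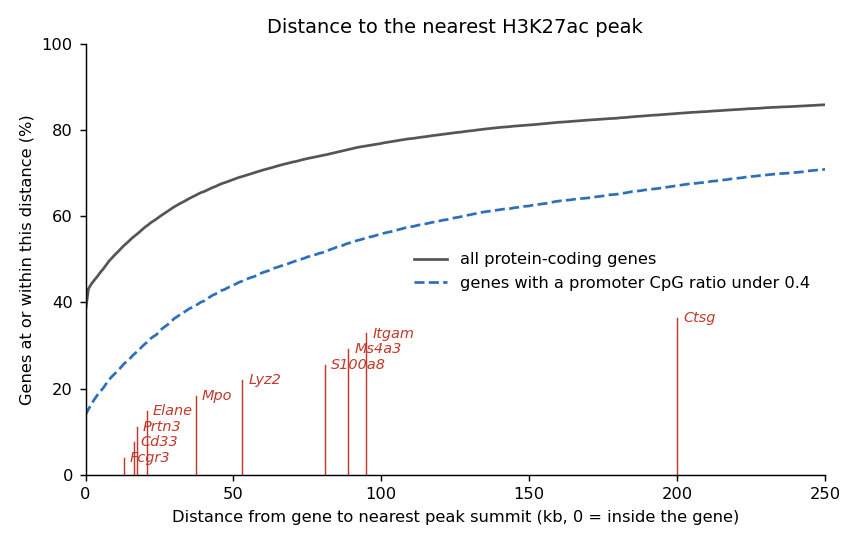
Cumulative share of genes by distance in kb from the gene to the nearest peak summit, for all protein-coding genes (solid) and for genes with a promoter CpG ratio under 0.4 (dashed); red lines, of arbitrary height, mark the 10 genes. The genes run from Fcgr3 at 12.9 kb to Ctsg at 200 kb.

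Set apart by class, the 11 distinct peaks within 50 kb of the 10 genes were 5 at ends of other genes and 6 distal ones. The peaks at gene ends had fold enrichments of 5.17 to 8.49, with a median of 7.10, against a median of 4.25 over all peaks at gene ends in the list. The distal peaks ran from 2.60 to 9.24 with a median of 3.72, against 2.97 over all distal peaks. Of the 6 distal peaks, 4 had a microRNA or transfer RNA gene end within 1 kb of the summit, and 2 of these lay beside the same gene, Mir6910. Of all 15480 distal peaks 0.549% had such an end that near. The other 2, upstream of Mpo and of Cd33, had no annotated gene end within 1 kb. A peak with its summit within 1 kb of an end of another gene lay within 50 kb of 3 members, Elane, Prtn3 and Cd33, against 42.3% of all genes. In all, 31 other protein-coding genes reached within 50 kb of a member, and 8 of them had a peak at an end by any overlap with the 1 kb window. This wider rule counts Tspoap1 and Plppr3, reached by the edges of peaks that are distal by their summits, one of them the peak near Mpo.

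The body counts depend on gene length. S100a8 and Elane are shorter than 2 kb and lie wholly within the windows at their ends, so that a body peak could not be counted there. Over all protein-coding genes 16.6% had a body peak. Among genes of 15 kb or shorter, which all members but Itgam are, 3.25% did.

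Other genes of the granulocyte and monocyte programme were counted in the same way. Of 12 genes listed for secondary and tertiary granules and later neutrophil products, such as Ltf, Camp, Ngp and Lcn2, none had a peak at an end, while 6 had a distal peak within 50 kb. Over all protein-coding genes these shares were 36.2% and 44.7%. The median promoter CpG ratio of this list was 0.16, under the 0.4 below which 10.6% of genes had a peak at an end. The medians of the lists that had end peaks are given below with the other lineages. Padi4 alone of the 12 had a body peak, against 16.6% of all genes. Of 8 further genes listed for primary granules, lysosomes and related proteins, which include Lyz1 and the cytosolic protease inhibitor gene Serpinb1a, 3 had a peak at an end. These were Ctsc, the protease that activates the granule serine proteases (fold enrichment 5.54), and the lysosomal enzymes Hexa (3.18) and Gusb (3.05). A body peak was found in 2 of the 8, Srgn, whose product packs proteases into granules, and Serpinb1a. Within 50 kb Srgn had 4 distal peaks and Serpinb1a had 2. A distal peak lay within 50 kb of 2 of these 8 genes. Of 6 NADPH oxidase genes, Cyba (3.86) and Rac2 (3.34) had a peak at an end, and 3 had a distal peak within 50 kb.

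Among 12 genes of Fc receptor, integrin and Siglec partners, 2 had a peak at an end, against 36.2% of all protein-coding genes. Itgb2, the beta chain that pairs with the product of Itgam, had an end peak with a fold enrichment of 5.39 and 5 distal peaks within 50 kb, and Siglece had an end peak of 4.62. A distal peak lay within 50 kb of 5 of the 12, against 44.7% of all protein-coding genes. Of 10 monocyte and macrophage genes, 4 had a peak at an end, Cd68 (6.40), Ctss (4.65), F13a1 (3.70) and Ccr2 (2.26), and 2 had a distal peak within 50 kb. Among the factors and receptors of the lineage, 3 of 8 transcription factor genes and 2 of 7 receptor genes had a peak at an end, with the highest fold enrichment, 10.8, at Il3ra. A distal peak lay within 50 kb of 5 of these factor genes and 2 of the receptor genes.

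For comparison, markers of the sort and of other lineages were read from the same list. The shares over all protein-coding genes were 36.2% for a peak at an end and 44.7% for a distal peak within 50 kb. Of 8 surface genes of stem and progenitor cells, 5 had a peak at an end, led by Ptprc (10.8), Flt3 (6.58) and Kit (5.66). The weakest of the 5, Cd48, had a fold enrichment of 2.45 and a −log10 q of 0.80, short of a q-value of 0.05. Ly6a, the gene of Sca1, had 3 distal peaks and none at an end. Of 10 B-cell surface genes 6 had a peak at an end, among them Cd24a (7.77) and Cd37 (5.35). Of 8 T-cell genes 2 had one, Zap70 (−log10 q 22.5) and Cd3d (−log10 q 9.06). None of 8 erythroid and megakaryocyte genes and none of 6 mast cell and basophil genes had one, while 3 and 2 of them had a distal peak within 50 kb. The median promoter CpG ratio of these 2 lists was 0.17 and 0.13, under the 0.4 below which 10.6% of genes had a peak at an end. Lists with end peaks had low medians too: 0.31 for B-cell, 0.20 for T-cell, 0.23 for monocyte and macrophage and 0.14 for NADPH oxidase genes. The Fc receptor, integrin and Siglec list had 0.20 and the further primary granule list 0.38. Stem and progenitor genes, factors and receptors had 0.45, 0.97 and 0.74. These medians cover only genes with a full promoter sequence, 5 of the 10 in the B-cell list. A distal peak lay within 50 kb of 7 of the 8 stem and progenitor genes, 6 of the 10 B-cell genes and 3 of the 8 T-cell genes. The counts for these short lists were not tested against each other.

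**Figure D5:**
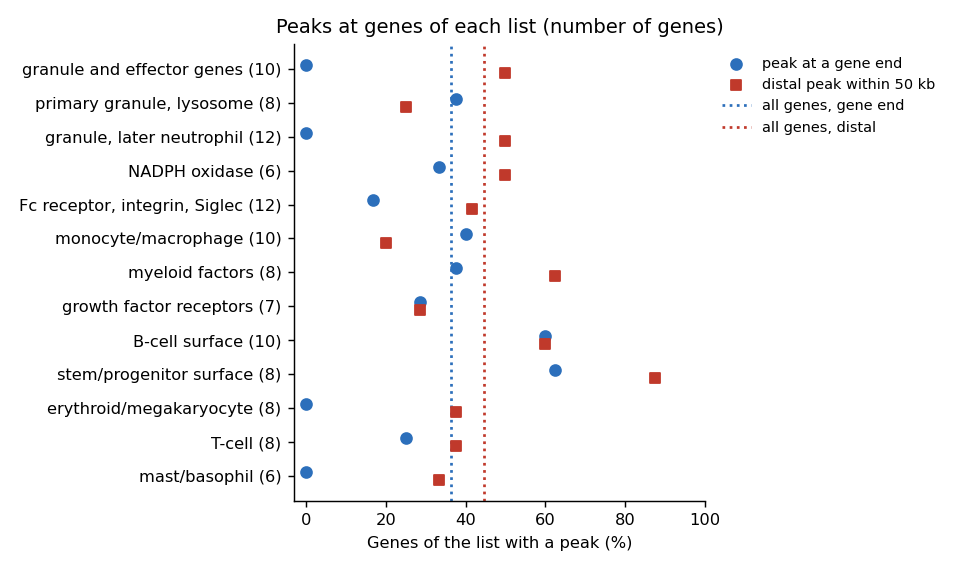
Share of the genes of each list, in percent, with a peak at a gene end (blue circles) and with a distal peak within 50 kb (red squares); the number of genes is in brackets, and dotted lines give the shares over all protein-coding genes, 36.2% and 44.7%. The granule and effector genes stand at 0 for gene ends and at 50% for distal peaks.

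A gene without a peak had no region that passed the authors' calling and the overlap filter that the name of the list points to. The depth of the libraries is unknown. The list sets no upper limit on the acetylation at these genes.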

How the data were processed

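The data were 1 peak list of the series, which pools the H3K27ac libraries over input. Per the submitters' processing notes, BWA and MACS2 were used with build mm10; their roles, versions and thresholds are not given in the sources used here. The list is named as an optimal overlap set, which points to a filter on overlap between peak calls, with no further detail given. The fold enrichment (a ratio), the −log10 p-values, the −log10 q-values and the score of each peak are the authors' deposited values, in the usual narrowPeak layout without a header. A q-value above 0.05 was attached to 21.2% of the peaks. Total reads, and so the depth and precision, are unknown.

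Peaks were joined to the RefSeq gene and promoter tables of GRCm38.p6, the assembly that mm10 names, with Python 3.11.15, numpy 2.4.6 and pandas 2.3.3. Coordinates are 1-based. Peaks at an end of a gene were those of which any part came within 1 kb of that end. Each peak was classed by its summit, as at a gene end within 1 kb of a protein-coding gene end and as distal otherwise. A body peak had its summit inside the gene and did not come within 1 kb of that gene's ends. CpG content and motifs were read from the first listed start of each gene. For Fcgr3 and Cd33 this start (171059403 and 43533171) lay inside the gene and not at its outer 5′ end (171065915 and 43537424). The assignment was tested on simulated peaks. No statistical test was possible. All members were named, with each gene whose end carried a peak within 50 kb and up to 4 genes with an end peak per list; other genes were named after their values were seen. The members and the lists were chosen with earlier results of these data known, and the split by CpG ratio, the split by gene length and the RNA genes near distal peaks after the values were seen. Some items are not reported here.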

Additional observations from a re-analysis of the deposited data

How the results depend on the processing

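The counts of 0 members with a peak at a gene end and in the body were 0 under every alternative run for them, which is no sign of stability: stricter lists and the summit rule can only remove peaks, and with the nearest summit 12.9 kb away the window of 2.5 kb and any overlap with the body had little to add. The number of members with a distal peak within 50 kb, 5 as deposited, was 7 at 100 kb, 4 at 25 kb and 4 when q-values above 0.05 were left out. It was 2 with a fold enrichment of at least 4, 2 when −log10 q had to reach 5, 3 with an end window of 2.5 kb and 2 with the ends of all annotated genes. The shares of all genes under these 4 settings are given with the counts above. No such share is given for 100 kb, 25 kb or the q-value limit, so those counts describe the members only. The median number of distal peaks per member, 0.5, was 0 under those 4 settings, 0 with a q-value of at most 0.05, 0 at 25 kb and 1.5 at 100 kb. The number of peaks at neighbouring gene ends, 5, was 8 with 2.5 kb, 9 with all annotated genes, 1 at 25 kb and 11 at 100 kb. These moves follow by construction from fewer peaks, other windows or more gene ends. Elane and Prtn3 went from 2 distal peaks to 0 under those 4 settings and to 1 with a q-value of at most 0.05. Mpo went from 2 to 0 at 25 kb and to 1 with 2.5 kb and with all annotated genes. The distal peak of Cd33 was lost in all stricter lists, that of Fcgr3 with all annotated genes, and the nearest summit to S100a8 lay 160 kb away with −log10 q of at least 5. Of 134 recomputed values, 94 were within 1.5 times the value as reported or stayed at 0. Many of the 94 were counts of 0 that stayed 0, which stricter lists and shorter distances could not change. The tally is therefore no sign of stability. No library could be left out, as all are pooled in the list. No paired analysis was possible because all columns pool the replicates. How many weak peaks were missed at this unknown depth was not measured.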

Other observations

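Transfer RNA genes were looked at across the list because of the peak beside Fcgr3. Of 408 transfer RNA genes in the gene table, 93 (22.8%) had a peak within 1 kb. Among the distal peaks, 47 had their summit within 1 kb of a transfer RNA gene end, with a median fold enrichment of 3.88 and a median width of 757 bp. The peak beside Fcgr3 was among the 4 strongest of these.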
